A study of Mus musculus with 12 samples.

Results

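The genes described here encode the enzymes that join glutathione, glucuronic acid or sulfate to small molecules in the mouse liver. They were taken by symbol: every gene in the table named Gst with a class letter (a, k, m, o, p, t or z) and a number, Mgst with a number, Ugt of family 1, 2 or 3 with a subfamily letter and a number, or Sult with a family number, a letter and a number, with nothing after the last number. Ugt1a6a, Ugt1a6b and Ugt1a7c, whose names end in a further letter, are in the table and are not members, and the pseudogene Gstm2-ps1 is left out in the same way. This gave 46 of the 15846 genes in the table: 19 glutathione transferases of the kappa class and the cytosolic classes (Gst), 2 microsomal ones (Mgst), 6 glucuronosyltransferases of the Ugt1a locus, 11 of the Ugt2 and Ugt3 families, and 8 sulfotransferases (Sult). A filter on low counts left 44 of them among the 14736 genes tested, and removed Gsta1 and Ugt2a1. The RNA came from 12 livers of C57BL/6 mice aged 5 months, 3 in each of 4 groups. WT mice on chow, Shp Hep-/- mice on chow, WT mice on the HFCF diet and Shp Hep-/- mice on the HFCF diet were compared. Shp Hep-/- is the labels' name for the Shp knockout mice, written KO below. How the deletion was made and what drove it, whether the WT mice were littermates carrying the unrecombined allele, the sex of the mice and what the HFCF diet contains are not given in the sources used here.

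Conjugation makes fat-soluble drugs, hormones, bile pigments and reactive by-products water soluble, so that transporters can move them into bile or blood, and the hepatocyte is its main site in the body. Glutathione transferases attach the tripeptide glutathione to electrophiles. Glucuronosyltransferases of the endoplasmic reticulum use UDP-glucuronic acid, and sulfotransferases of the cytosol use the activated sulfate PAPS. Many of these genes are known targets of the xenobiotic receptors CAR and PXR and of the stress-response factor NRF2. Shp, gene symbol Nr0b2, is an orphan nuclear receptor that lacks a DNA-binding domain and acts as a corepressor of other nuclear receptors, among them LRH-1 and HNF4A.

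The Ugt1a locus needs its sequence to be read correctly. Its genes lie in 1 tandem array on mm10 chromosome 1, in which each gene has a first exon of its own that is spliced to the same downstream exons. In the GENCODE M21 annotation, 1311 exonic bases in 4 segments between positions 88215044 and 88218997 belong to all 9 Ugt1a genes of the table, and they make up 57.8% to 59.9% of the exonic length of the 6 members. The deposited length of all 6 members equalled that annotated exonic length. The junctions below, from the GENCODE M21 transcripts, show the last 30 bases of each first exon in lower case and the first 30 bases of the shared exon in capitals.
Ugt1a1: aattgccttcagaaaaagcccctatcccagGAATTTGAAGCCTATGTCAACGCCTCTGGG
Ugt1a5: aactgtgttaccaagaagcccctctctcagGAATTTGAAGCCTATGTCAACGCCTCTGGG
Ugt1a8: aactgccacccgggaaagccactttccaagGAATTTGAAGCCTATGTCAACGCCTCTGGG
Ugt1a9: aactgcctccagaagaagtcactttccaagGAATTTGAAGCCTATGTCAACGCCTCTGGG
Ugt1a10: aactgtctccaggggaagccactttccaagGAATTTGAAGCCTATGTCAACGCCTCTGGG
The capitals are the same in all 5, so a read that lies in the capitals carries no mark of its first exon, and only reads that reach into the lower-case part do. The 100 bases before each first exon, by contrast, are separate stretches of the chromosome, and are shown for the 3 first exons whose values differ most below (RefSeq starts, GRCm38.p6, plus strand, lower case throughout).
Ugt1a1, chr1:88211859-88211958: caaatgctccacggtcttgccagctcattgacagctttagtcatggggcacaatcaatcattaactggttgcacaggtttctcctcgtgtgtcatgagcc
Ugt1a5, chr1:88165912-88166011: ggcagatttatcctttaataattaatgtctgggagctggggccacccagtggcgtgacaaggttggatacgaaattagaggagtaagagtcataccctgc
Ugt1a9, chr1:88070679-88070778: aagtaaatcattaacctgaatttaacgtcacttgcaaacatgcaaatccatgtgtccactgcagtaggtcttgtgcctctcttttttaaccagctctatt

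Values below are FPKM, deposited values that scale each count by gene length and by a factor of the library, given liver by liver in the order of the replicate numbers. Levels are compared between genes by FPKM, or for the Ugt1a first exons by CPM per kilobase of own exon. CPM are counts scaled by library total with TMM factors, without gene length. A log2 fold change is followed by ± its standard error (edgeR, quasi-likelihood, all 12 libraries together). A gene is called up or down when its Benjamini-Hochberg adjusted p over all 14736 tested genes was under 0.05. Total counts ran from 13967116 to 18324134 per library. Nr0b2, the targeted gene, had CPM of 49.3, 22.4 and 31 in WT and 0.775, 0.552 and 1.01 in KO livers on chow. On HFCF it had CPM of 47.6, 49.6 and 53.4 in WT and 0.509, 0.21 and 0.394 in KO livers. The genotypes did not overlap (-5.44 ± 0.32, adjusted p = 1.7e-07 on chow, -7.05 ± 0.35, adjusted p = 3.37e-08 on HFCF). Of 12 hepatocyte markers, 10 were in the table and none was at 0 in any liver, whereas Alb and Tf were not analysed here. Transcripts of 4 Y-linked genes were found in all 12 livers. Liver 1 of the WT HFCF group stood apart from livers 2 and 3 of its group. Among the 42 members with a mean of at least 1 CPM, Gstm2, Gstm3 and Mgst3 were at least 2-fold above both other livers there, and Ugt2b38 was at least 2-fold below. Results that rest on that liver are given with and without it. In RNA from whole liver, fewer cells of a type and less RNA per cell cannot be told apart.

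The KO livers held less RNA of many conjugation enzymes on both diets. On chow, 20 of the 44 tested members were called down and 6 up, where 5.82% of all tested genes were called down, 9.72% up and 15.5% in either direction. On HFCF, 22 members were down and 2 up, where 8.52% of all tested genes were down, 10.6% up and 19.1% either way. The 6 Ugt1a members share most of their reads and count as 1 locus; without them, 14 and 16 of 38 members were down. In counts without regard to length, on which the tests run, 34 of the 44 had a mean of at least 10 CPM, against 8066 of the 14736. Among these 34, 18 were down and 2 up on chow and 19 down and 1 up on HFCF, where 9.10% and 12.3% of all tested genes at that level were down, 7.25% and 9.96% up, and 16.4% and 22.3% either way. Leaving out 1 liver moved some counts by more than 1.5 times. On chow, 3 members were up without WT chow liver 1 or KO chow liver 1, and 13 down without WT chow liver 3 or KO chow liver 2. Over all tested genes, 1055 and 1087 were up and 400 and 459 down in these fits, against 1432 and 857 with all livers. On HFCF, 5 members were up without WT HFCF liver 1 or KO HFCF liver 3, where 1578 and 1119 of all genes were up, against 1558. The 3 KO livers lay wholly below the 3 WT livers for 24 members on chow and above them for 9, where 16.8% of all genes were apart downwards, 19.4% upwards and 36.1% either way. On HFCF they lay below for 25 and above for 3, beside 15.7%, 18.5% and 34.2%. The median log2 fold change of the 44 members was -0.21 on chow and -0.41 on HFCF, beside 0.004 and 0.02 over all tested genes.

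The diet moved fewer members. In WT livers, HFCF against chow called 6 members up and 3 down, where 7.76% of all tested genes were called up, 5.90% down and 13.7% either way. In KO livers it called 0 up and 7 down, where 1.47% of all genes were up, 1.18% down and 2.65% either way. The interaction, which tests whether the genotype difference changed with diet, called 4 members, all down, meaning that the knockout was relatively lower on HFCF, where 0.373% of all genes were up, 0.421% down and 0.794% either way. Among the 34 members of at least 10 CPM, the diet called 5 up and 2 down in WT, where 9.73% of all genes at that level were up, 8.79% down and 18.5% either way. It called 0 up and 5 down in KO livers, beside 1.93% up, 1.44% down and 3.37% either way. The interaction called 0 up and 3 down of the 34, beside 0.620% up, 0.570% down and 1.19% either way. For the KO diet contrast, 6 of the 7 called members were glutathione transferases. The diet groups were apart in WT livers for 9 members upwards and 6 downwards, beside 15.8%, 15.3% and 31.1% either way of all genes, and in KO livers for 5 upwards and 22 downwards, beside 13.1%, 11.3% and 24.4%. The counts of calls also moved by more than 1.5 times without single livers: in WT, 3 were up without WT chow liver 3, and 1 down without WT chow liver 2 or 3 or WT HFCF liver 2. Over all tested genes, 649 were up without WT chow liver 3, against 1144 with all livers. In the fits with 1 member down, 451 to 587 of all genes were down, against 869. In KO livers, 3 members were down without KO chow liver 1 or KO HFCF liver 2, 4 without KO HFCF liver 1, and 1 was up without KO HFCF liver 3. Over all genes, 72 to 78 were down without KO chow liver 1 or KO HFCF liver 1 or 2, against 174. Without KO HFCF liver 3, 181 of all genes were up, against 216. The interaction called 0 or 1 member without any one WT chow liver, any one KO HFCF liver, or KO chow liver 1 or 3. In these fits, 7 to 20 of all genes were down for it, against 62. Without liver 1 of the WT HFCF group, the counts of members were 4 up and 3 down for the diet in WT, 5 up and 23 down for the genotype on HFCF, and 3 down for the interaction. Over all genes they were 757 up and 546 down, 1578 up and 1053 down, and 46 down in the same order.

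**Figure D1:**
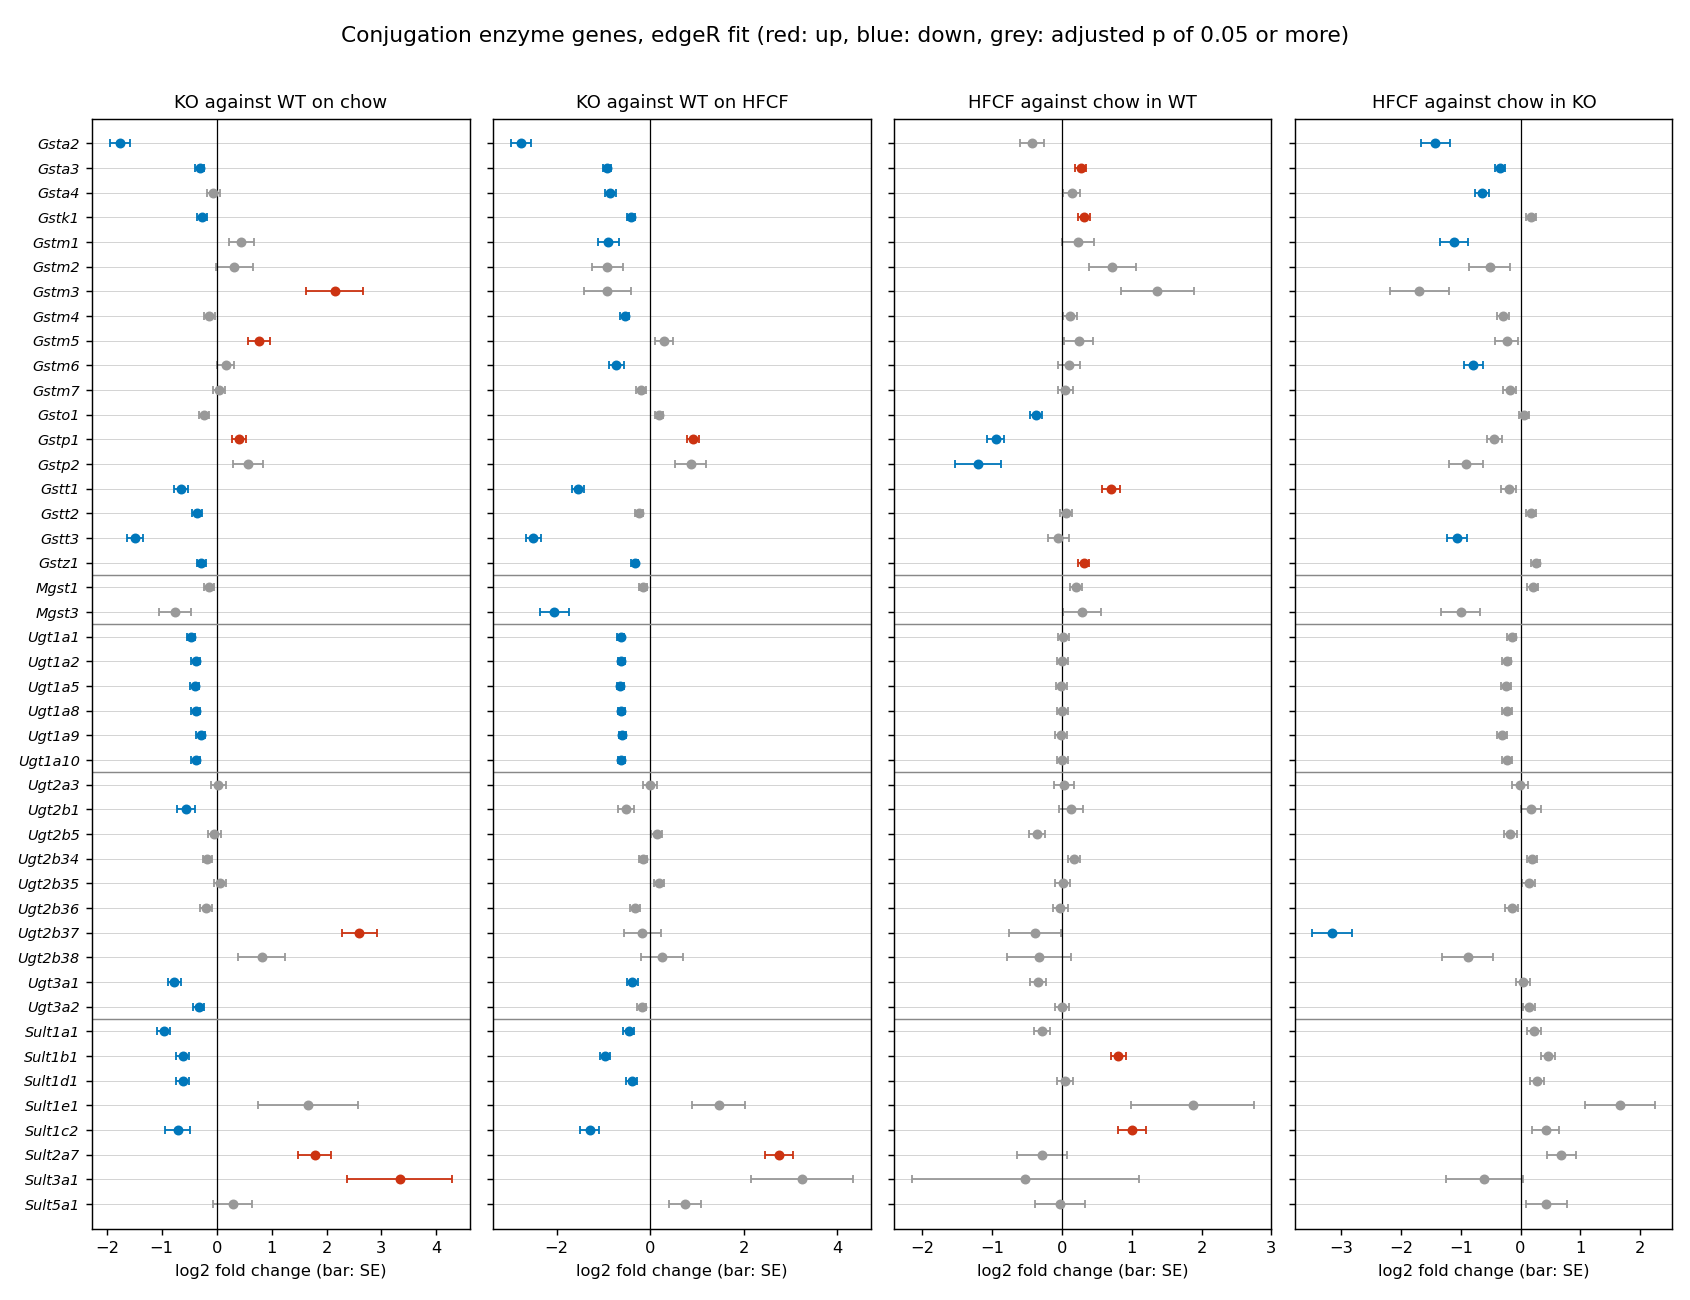
Log2 fold change (x axis, bars are standard errors) of each of the 44 tested members (y axis, ordered by family, with lines between Gst, Mgst, Ugt1a, Ugt2/3 and Sult) in the 2 genotype and 2 diet contrasts, red where called up, blue where called down and grey otherwise. Blue points outnumber red in both genotype panels, 20 against 6 on chow and 22 against 2 on HFCF, and all 6 Ugt1a points, which share reads, are blue in both.

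The 2 genotype contrasts used separate livers, so their calls can be set side by side. Of the 20 members down on chow and the 22 down on HFCF, 17 were the same genes, which is 85% of the first list and 77.3% of the second. Outside Ugt1a, 11 were shared, 78.6% and 68.8% of the lists. Over all tested genes, 429 genes were down on both diets, 50.1% of those down on chow and 34.2% of those down on HFCF. These shares were not matched for level, and 34 of the 44 members had a mean of at least 10 CPM, against 8066 of the 14736 genes. The part of level in the gap was not tested. The members down on both diets were Gsta2, Gsta3, Gstk1, Gstt1, Gstt3, Gstz1, Sult1a1, Sult1b1, Sult1c2, Sult1d1, Ugt3a1 and the 6 Ugt1a genes. Gstp1 and Sult2a7 were up on both. Another 11 members, among them Mgst1, Ugt2b5 and Ugt2b36, were called in none of the 5 contrasts.

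**Figure D2:**
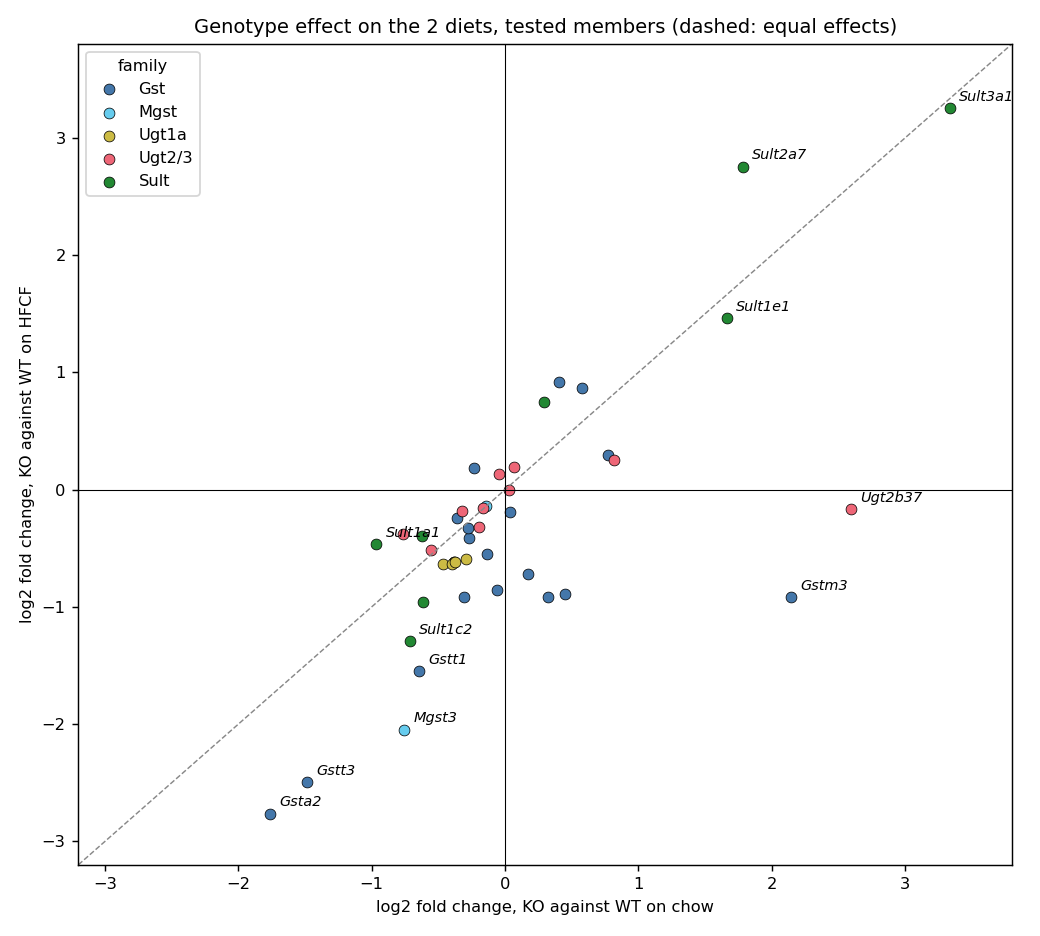
Log2 fold change of KO against WT on chow (x axis) and on HFCF (y axis) for the 44 tested members, coloured by family, with a dashed line where both effects are equal. Gsta2, Gstt3, Gstt1 and Mgst3 lie below the line in the lower left, and Ugt2b37 and Gstm3 are high on chow alone. Sult2a7 and Sult3a1 lie in the upper right, and Sult3a1 was not called on HFCF.

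Among the 3 alpha class glutathione transferases tested, Gsta2 (chromosome 9, 78331018 to 78355788) had the largest fall in the knockout on both diets. Its FPKM were 9.36, 8.49 and 11.5 in WT chow livers and 3.44, 2.58 and 2.87 in KO chow livers. Gsta2 on HFCF was at 8.99, 5.59 and 7.68 in WT livers and 0.948, 1.23 and 0.973 in KO livers. All KO livers lay below all WT livers, and KO HFCF livers were the lowest of all. It fell 3.39-fold on chow (-1.76 ± 0.19, adjusted p = 5.78e-05) and 6.79-fold on HFCF (-2.76 ± 0.22, adjusted p = 3.19e-06). HFCF lowered it in KO livers (-1.43 ± 0.24, adjusted p = 0.00624) and was not called in WT livers (-0.43 ± 0.17, adjusted p = 0.114). The interaction was not called (adjusted p = 0.151). Gsta1, its near copy on the same chromosome, did not pass the count filter: on HFCF it had 81 counts over the 3 WT livers, 68 of them in liver 1, and 2 over the 3 KO livers. Of the 50-base words of Gsta2's transcript, 64.2% occur in transcripts of other genes, so its reads may be split with near copies in ways that depend on the authors' counting.

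Gsta3 (chromosome 1, 21240589 to 21265361) was the most abundant cytosolic transferase, and is the alpha class enzyme known for conjugating the activated form of aflatoxin in mouse liver. It had FPKM of 879, 814 and 852 in WT chow livers and 739.7, 635 and 756 in KO chow livers. Gsta3 on HFCF was at 1108, 972 and 1067 in WT livers and 523, 564 and 514 in KO livers. The diet moved it up in WT livers and down in KO livers, so that the 4 groups did not overlap. HFCF raised it in WT livers (0.27 ± 0.08, adjusted p = 0.0437), a call that was lost without any one of WT chow livers 1, 2 or 3 or WT HFCF livers 1 or 3 (adjusted p = 0.0698 to 0.126) and in a fit of the compared groups alone (adjusted p = 0.0848). That call was also lost in a fit with the replicate number as a block (adjusted p = 0.0575). In KO livers Gsta3 fell (-0.34 ± 0.08, adjusted p = 0.0443), a call lost without any one of KO chow livers 1 or 3 or KO HFCF livers 1, 2 or 3 (adjusted p = 0.0807 to 0.173) and in a fit of the compared groups alone (adjusted p = 0.0555). With the replicate number as a block this call was lost too (adjusted p = 0.0583). The knockout lowered Gsta3 on chow (-0.31 ± 0.08, adjusted p = 0.0238), a call lost without any one of WT chow livers 1 or 3 or KO chow liver 2 (adjusted p = 0.0653 to 0.0966). On HFCF the difference was -0.92 ± 0.08, adjusted p = 8.52e-06. The interaction (-0.61 ± 0.12, adjusted p = 0.0377) was lost without any one of WT chow livers 1, 2 or 3, KO chow livers 1 or 3 or KO HFCF livers 1, 2 or 3 (adjusted p = 0.068 to 0.101).

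Gsta4, the alpha class enzyme that conjugates the lipid peroxidation product 4-hydroxynonenal, had FPKM of 48.1, 47.7 and 61.1 in WT chow livers and 53.2, 50 and 52.2 in KO chow livers. Gsta4 on HFCF was at 62.5, 50 and 65 in WT livers and 27.3, 31 and 35.7 in KO livers. Only the KO HFCF livers lay apart from the other 3 groups, below all of them. The genotype difference was not called on chow (-0.06 ± 0.12, adjusted p = 0.762) and was called down on HFCF (-0.85 ± 0.12, adjusted p = 0.000301), with an interaction of -0.79 ± 0.17, adjusted p = 0.0497. Its interaction call was lost without any one of WT chow livers 1 or 2, KO chow livers 1, 2 or 3, WT HFCF livers 1 or 3 or KO HFCF livers 1, 2 or 3 (adjusted p = 0.0539 to 0.122) and with no count filter (adjusted p = 0.0501) and under limma voom (adjusted p = 0.0511). HFCF lowered Gsta4 in KO livers (-0.65 ± 0.12, adjusted p = 0.0112), a call lost without any one of KO chow liver 1 or KO HFCF livers 1 or 2 (adjusted p = 0.0531 to 0.0728).

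The theta class genes lie side by side on chromosome 10, between 75774115 and 75834881. Gstt1, which conjugates small halogenated compounds, had FPKM of 121, 96.8 and 116 in WT chow livers and 81.8, 61.6 and 77.5 in KO chow livers. Gstt1 on HFCF was at 217, 179 and 161 in WT livers and 64, 55.8 and 63.2 in KO livers. HFCF raised it in WT livers (0.71 ± 0.13, adjusted p = 0.00292) and was not called in KO livers (-0.20 ± 0.13, adjusted p = 0.455), and the WT HFCF livers were the highest of all. The knockout lowered Gstt1 on chow (-0.64 ± 0.13, adjusted p = 0.00508) and on HFCF (-1.55 ± 0.13, adjusted p = 4.39e-06), the latter a 2.92-fold fall. The interaction (-0.90 ± 0.18, adjusted p = 0.0423) was lost without any one of WT chow livers 1, 2 or 3, KO chow livers 1 or 3, WT HFCF livers 1 or 2 or KO HFCF livers 1, 2 or 3 (adjusted p = 0.0578 to 0.105). Gstt3, its neighbour, had FPKM of 26.8, 18.1 and 23.6 in WT chow livers and 8.41, 6.65 and 10.2 in KO chow livers. Gstt3 on HFCF was at 25.7, 19.2 and 22.8 in WT livers and 3.82, 3.58 and 4.09 in KO livers, with every KO liver below every WT liver on both diets. It fell 2.8-fold on chow (-1.49 ± 0.15, adjusted p = 4.76e-05) and 5.64-fold on HFCF (-2.50 ± 0.16, adjusted p = 4.45e-07), and HFCF lowered it further in KO livers (-1.06 ± 0.17, adjusted p = 0.00396). The interaction of Gstt3 was not called (-1.01 ± 0.22, adjusted p = 0.0539). Of its 50-base words, 26% occur in transcripts of other genes. Gstt2, the third neighbour, was called down on chow (-0.36 ± 0.09, adjusted p = 0.0134) and missed the threshold on HFCF (-0.24 ± 0.09, adjusted p = 0.0633).

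**Figure D3:**
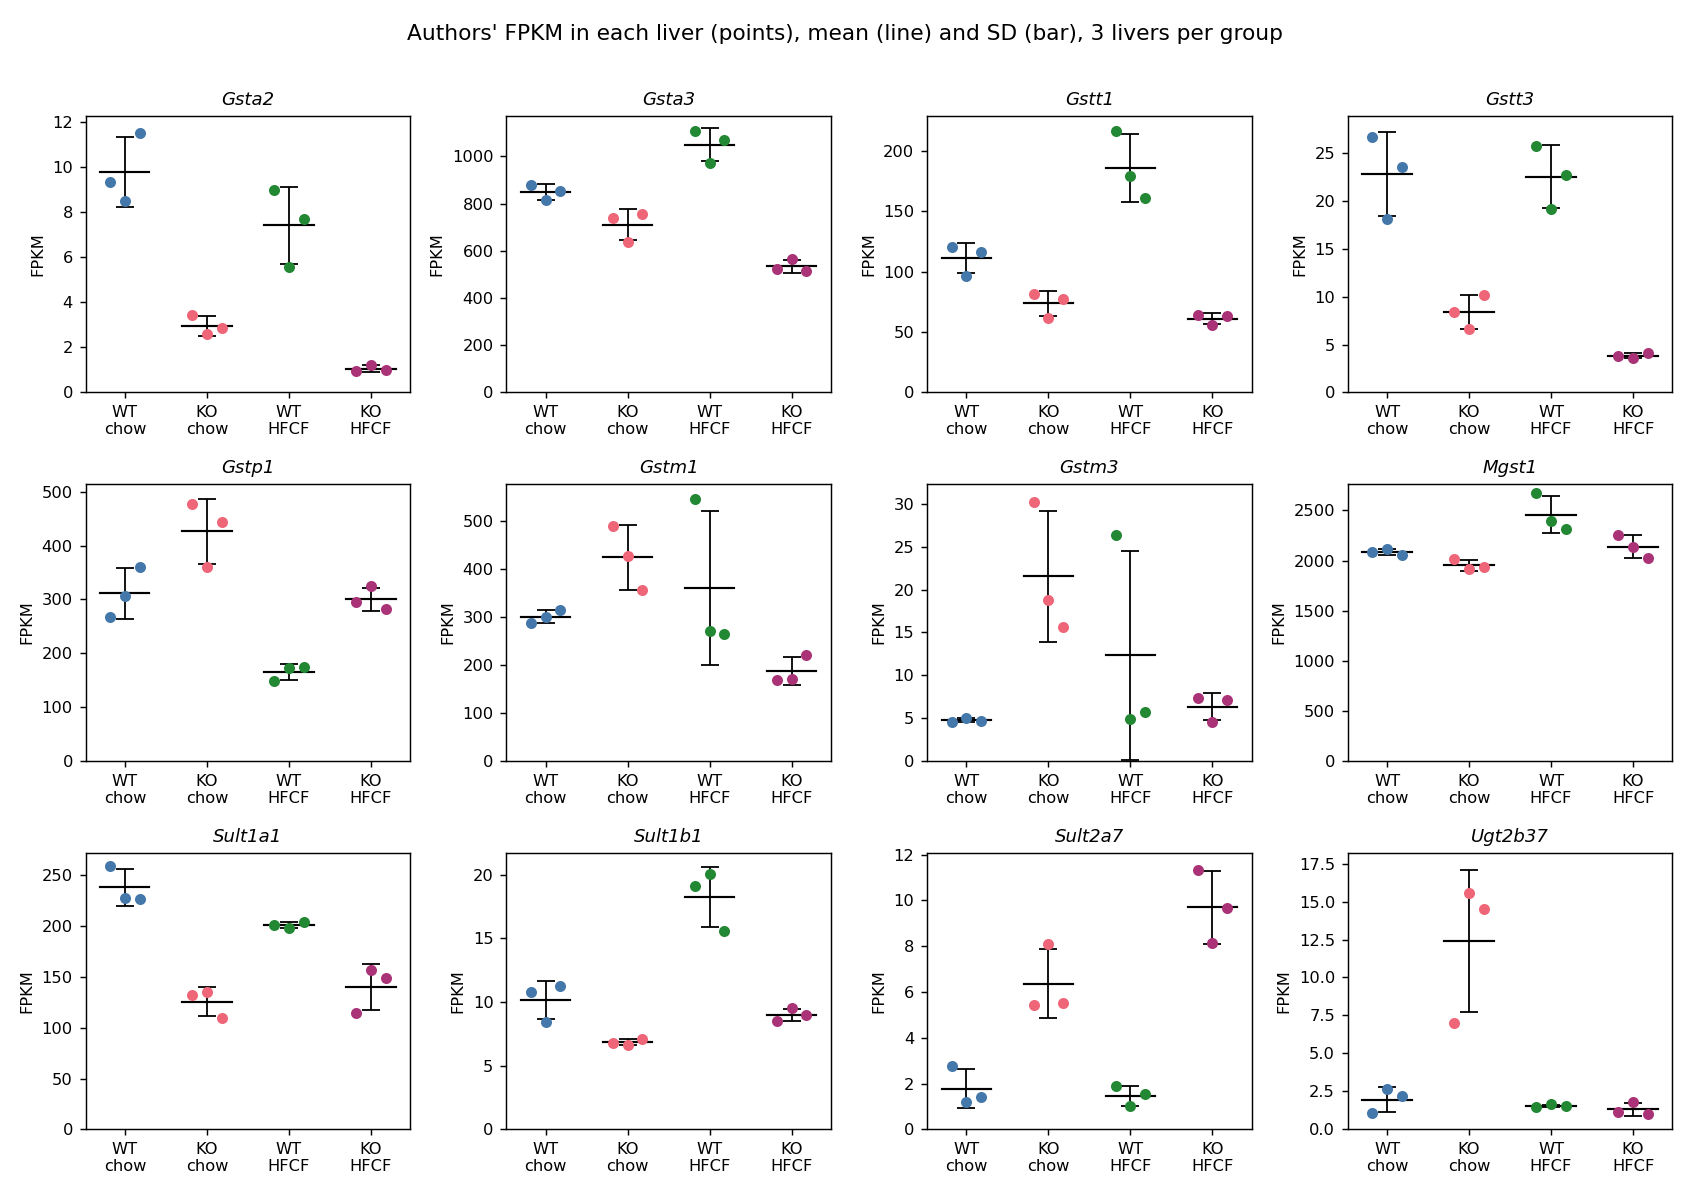
FPKM (y axis, each panel on its own scale from 0) of 12 members in each liver (points) by group (x axis), with the mean as a line and the SD over 3 livers as a bar. Gsta2, Gstt3 and Sult1a1 are lower in both KO groups, Sult2a7 is higher in both, Ugt2b37 is high in the KO chow group alone, and liver 1 of the WT HFCF group is the high point of its group for Gstm1 and Gstm3.

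Gstp1, the pi class enzyme (chromosome 19, 4035411 to 4037921), went the other way. Its FPKM were 267, 306 and 360.2 in WT chow livers and 477, 359.9 and 444 in KO chow livers. Gstp1 on HFCF was at 149, 172 and 175 in WT livers and 294, 324 and 281 in KO livers. HFCF lowered Gstp1 in WT livers (-0.95 ± 0.12, adjusted p = 0.000332), a 1.93-fold fall with no overlap between diets, whereas the fall in KO livers was not called (-0.44 ± 0.12, adjusted p = 0.068). The knockout was higher on HFCF (0.92 ± 0.12, adjusted p = 0.000197), again with no overlap. On chow the groups overlapped (0.41 ± 0.12, adjusted p = 0.0369), and that call was lost without any one of WT chow livers 1 or 2 or KO chow livers 1 or 3 (adjusted p = 0.084 to 0.143) and in a fit of the compared groups alone (adjusted p = 0.0605). Gstp2, its neighbour, was called down by HFCF in WT livers (-1.20 ± 0.33, adjusted p = 0.0282), a call lost without any one of WT chow livers 2 or 3 or WT HFCF livers 2 or 3 (adjusted p = 0.0698 to 0.0934) and in a fit of the compared groups alone (adjusted p = 0.0754). It had FPKM of 1.72, 2.5 and 2.46 in WT chow livers and 3.15, 3.23 and 3.98 in KO chow livers. Gstp2 on HFCF was at 1.54, 0.555 and 0.799 in WT livers and 1.49, 2.22 and 1.53 in KO livers. The transcripts are close copies, with 62.3% of the 50-base words of Gstp1 and 72.6% of those of Gstp2 found in other genes, so counts of the weaker gene are uncertain.

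The mu class genes lie in a cluster on chromosome 3, between 107895821 and 108044894. Gstm3 and Gstm5 were higher in KO chow livers. Gstm3 had FPKM of 4.52, 4.98 and 4.69 in WT chow livers and 30.2, 18.8 and 15.7 in KO chow livers. Gstm3 on HFCF was at 26.4, 4.87 and 5.73 in WT livers and 7.31, 4.52 and 7.17 in KO livers. All 3 KO chow livers lay above the WT chow livers (2.15 ± 0.52, adjusted p = 0.0139, 4.42-fold), a call lost without WT chow liver 3 (adjusted p = 0.0557) or without KO chow liver 1 (adjusted p = 0.0527). On HFCF the genotype difference was not called (-0.92 ± 0.50, adjusted p = 0.237), and without WT HFCF liver 1 it was 0.32 with an adjusted p of 0.504. That liver held 26.4 FPKM of Gstm3, against 4.87 and 5.73 in the other 2 of its group. The interaction of Gstm3 was not called. Gstm5 had FPKM of 3.98, 3.64 and 4.69 in WT chow livers and 6.78, 7.02 and 7.92 in KO chow livers. Gstm5 on HFCF was at 6.93, 3.47 and 4.42 in WT livers and 5.35, 6.01 and 6.23 in KO livers. It was called up on chow (0.77 ± 0.20, adjusted p = 0.0209), a call lost without any one of WT chow livers 1 or 2 or KO chow livers 2 or 3 (adjusted p = 0.0513 to 0.0745). On HFCF it was not called (0.30 ± 0.20, adjusted p = 0.34), and without WT HFCF liver 1 it was (0.63, adjusted p = 0.012).

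Gstm1, the most abundant mu class member, had FPKM of 288, 300.2 and 314 in WT chow livers and 491, 427 and 356 in KO chow livers. Gstm1 on HFCF was at 547, 270.5 and 266 in WT livers and 169, 171 and 221 in KO livers. The KO chow livers were the high group and the KO HFCF livers the low one, with WT HFCF liver 1 above every other liver. HFCF lowered Gstm1 in KO livers (-1.11 ± 0.23, adjusted p = 0.0218), a call lost without any one of KO chow livers 1 or 2 or KO HFCF livers 1 or 2 (adjusted p = 0.0591 to 0.103). KO HFCF livers were below WT HFCF livers (-0.89 ± 0.23, adjusted p = 0.0158); without WT HFCF liver 1 the difference was -0.46 (adjusted p = 0.0403), and the call was lost without KO HFCF liver 1 (adjusted p = 0.0548) or without KO HFCF liver 2 (adjusted p = 0.0573). Gstm4 (-0.55 ± 0.10, adjusted p = 0.00229) and Gstm6 (-0.72 ± 0.16, adjusted p = 0.00603) were also called down on HFCF, and both calls were kept in every alternative run. WT HFCF liver 1 was the high point of its group for both. It held 19.45 FPKM of Gstm4 against 15.46 and 15.31 in livers 2 and 3, and 29.3 FPKM of Gstm6 against 19.4 and 20.1. Gstm6 fell with HFCF in KO livers (-0.79 ± 0.16, adjusted p = 0.0167), a call lost without KO chow liver 1 (adjusted p = 0.0856) or without KO HFCF liver 2 (adjusted p = 0.0821). Gstm2 and Gstm7 were called in no contrast. Gstm1, Gstm3 and Gstm6 share 11.5% to 28.8% of their 50-base words with other genes.

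Gstz1 and Gstk1 showed small differences in the same directions. Gstz1, the maleylacetoacetate isomerase of tyrosine breakdown, had FPKM of 449, 449 and 435 in WT chow livers and 382, 364 and 392 in KO chow livers. Gstz1 on HFCF was at 575, 589.6 and 529.9 in WT livers and 441, 430 and 423 in KO livers. It rose with HFCF in WT livers (0.31 ± 0.08, adjusted p = 0.0159), a call lost without WT chow liver 3 (adjusted p = 0.0586) or without WT HFCF liver 2 (adjusted p = 0.0618) and in a fit of the compared groups alone (adjusted p = 0.0559). The knockout lowered it on chow (-0.28 ± 0.08, adjusted p = 0.026), a call lost without any one of WT chow livers 1, 2 or 3 or KO chow livers 1, 2 or 3 (adjusted p = 0.0565 to 0.0789). On HFCF it was lowered as well (-0.33 ± 0.08, adjusted p = 0.00773). Gstk1, the kappa class enzyme of mitochondria and peroxisomes, had FPKM of 125, 122 and 113 in WT chow livers and 111, 94.9 and 102 in KO chow livers. Gstk1 on HFCF was at 168, 149 and 142 in WT livers and 117, 106 and 108 in KO livers. It rose with HFCF in WT livers (0.32 ± 0.09, adjusted p = 0.0255), a call lost without any one of WT chow liver 3 or WT HFCF livers 1 or 2 (adjusted p = 0.0583 to 0.109). It fell in the knockout on chow (-0.27 ± 0.09, adjusted p = 0.0484), a call lost without any one of WT chow livers 1, 2 or 3 or KO chow livers 2 or 3 (adjusted p = 0.0761 to 0.158). On HFCF it fell as well (-0.41 ± 0.09, adjusted p = 0.0042). Gsto1, the omega class enzyme that reduces dehydroascorbate, had FPKM of 58.5, 63.3 and 62.8 in WT chow livers and 54.9, 48.9 and 59.1 in KO chow livers. Gsto1 on HFCF was at 46.4, 46.5 and 54.2 in WT livers and 48.7, 59.7 and 52.3 in KO livers. It fell with HFCF in WT livers (-0.36 ± 0.09, adjusted p = 0.0131), a call lost without any one of WT chow livers 2 or 3 or WT HFCF liver 2 (adjusted p = 0.0503 to 0.0579).

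Mgst1, a membrane enzyme of the endoplasmic reticulum and outer mitochondrial membrane, had the highest FPKM of all 46 members: 2090, 2115 and 2052 in WT chow livers and 2016, 1914 and 1932 in KO chow livers. Mgst1 on HFCF was at 2670, 2393 and 2314 in WT livers and 2254, 2138 and 2022 in KO livers. It was called in no contrast, and its log2 fold changes ran from -0.14 to 0.20. Mgst3, a microsomal transferase that can form leukotriene C4, had FPKM of 12.9, 9.05 and 11.7 in WT chow livers and 6.15, 8.24 and 6.21 in KO chow livers. Mgst3 on HFCF was at 22.4, 9.97 and 9.39 in WT livers and 3.37, 2.77 and 3.58 in KO livers. KO HFCF livers were the low group, all 3 below every other liver, and the genotype difference on HFCF was -2.05 ± 0.31, adjusted p = 0.000503; without WT HFCF liver 1 it was -1.51 (adjusted p = 0.000143). On chow Mgst3 was not called (-0.76 ± 0.29, adjusted p = 0.0921). Summed over the 19 Gst genes, FPKM averaged 2423 ± 65 (SD, n = 3) in WT chow, 2387 ± 186 in KO chow, 2780 ± 286 in WT HFCF and 1832 ± 22 in KO HFCF livers. The KO HFCF livers had the lowest sum of the 4 groups, with all 3 livers below all 9 others.

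The Ugt1a genes conjugate bilirubin (Ugt1a1), bile acids, phenols and drugs. All 6 members were called down in the knockout on both diets, with log2 fold changes from -0.47 to -0.29 on chow and from -0.63 to -0.59 on HFCF, and none was called for diet. Ugt1a1 had FPKM of 592, 554 and 624 in WT chow livers and 465, 426 and 433 in KO chow livers. Ugt1a1 on HFCF was at 619, 596 and 621 in WT livers and 389, 369 and 379 in KO livers, with every KO liver below every WT liver (-0.47 ± 0.08, adjusted p = 0.0018 on chow, -0.63 ± 0.08, adjusted p = 0.000118 on HFCF). Since shared reads stand in every gene of the locus, the lowest Ugt1a gene of each library (Ugt1a8 or Ugt1a10, within 28 counts of each other in every liver) was taken as the shared part, and each other gene as its counts above it. This split was chosen after seeing the data.

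The shared part, in CPM, was 935, 883 and 1000 in WT chow livers and 762, 707 and 695 in KO chow livers. The shared part on HFCF was 982, 911 and 935 in WT livers and 648, 592 and 605 in KO livers. It was lower in the knockout on chow (-0.38 ± 0.08, adjusted p = 0.00723) and on HFCF (-0.62 ± 0.08, adjusted p = 0.000184), with no overlap. The excess of Ugt1a1, in CPM, was 381, 374 and 408 in WT chow livers and 257, 239.8 and 223 in KO chow livers. For Ugt1a1, the excess on HFCF was 379, 419 and 404 in WT livers and 253, 237 and 264 in KO livers. It fell in the knockout on chow (-0.69 ± 0.08, adjusted p = 0.000131) and HFCF (-0.67 ± 0.08, adjusted p = 9.82e-05). The excess of Ugt1a5, in CPM, was 28.5, 21.3 and 31 in WT chow livers and 12.7, 12.5 and 13.4 in KO chow livers. For Ugt1a5, the excess on HFCF was 29.6, 13.6 and 16.8 in WT livers and 5.89, 4.13 and 5.79 in KO livers. It fell in the knockout on chow (-1.07 ± 0.23, adjusted p = 0.00843) and on HFCF (-1.93 ± 0.26, adjusted p = 0.000212), and HFCF lowered it in KO livers (-1.28 ± 0.26, adjusted p = 0.0203), a call lost without some single livers (highest adjusted p = 0.0981, without KO HFCF liver 2). The excess of Ugt1a2 was small, 1.45 to 4.51 CPM over the 12 livers, and was called down on HFCF alone (-0.87 ± 0.21, adjusted p = 0.0102).

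Ugt1a9 differed in direction between its deposited counts and its own first exon. As deposited it was called down on chow (-0.29 ± 0.08, adjusted p = 0.0271), a call lost without any one of WT chow livers 1 or 3 or KO chow livers 2 or 3 (adjusted p = 0.0574 to 0.109). Its excess, in CPM, was 23.2, 26.8 and 23.5 in WT chow livers and 68, 72.7 and 58.9 in KO chow livers. For Ugt1a9, the excess on HFCF was 26.7, 7.3 and 8.96 in WT livers and 16.8, 18.5 and 20.6 in KO livers, so its own first exon was counted more in KO chow livers than in any other liver. The excess was up in the knockout on chow (1.44 ± 0.31, adjusted p = 0.00834, or 2.71-fold), and leaving out any one of the 6 chow livers gave 1.37 to 1.52 with adjusted p of 0.0155 to 0.0401. HFCF lowered it in KO livers (-1.83 ± 0.32, adjusted p = 0.00728). On HFCF the genotype difference was 0.36 ± 0.33, adjusted p = 0.505; without WT HFCF liver 1, which held 26.7 CPM against 7.30 and 8.96 in livers 2 and 3, it was 1.196 (adjusted p = 7.84e-05). Without that liver, the excess also fell with HFCF in WT livers, by 1.59 on the log2 scale for Ugt1a9 (adjusted p = 2.82e-05) and by 0.83 for Ugt1a5 (adjusted p = 0.00747). The interaction of the Ugt1a9 excess was not called (-1.08 ± 0.46, adjusted p = 0.324). Per kilobase of own exon, Ugt1a1 held 424 CPM and Ugt1a9 27.9 CPM in WT chow livers, beside 263 and 75.7 CPM in KO chow livers.

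**Figure D4:**
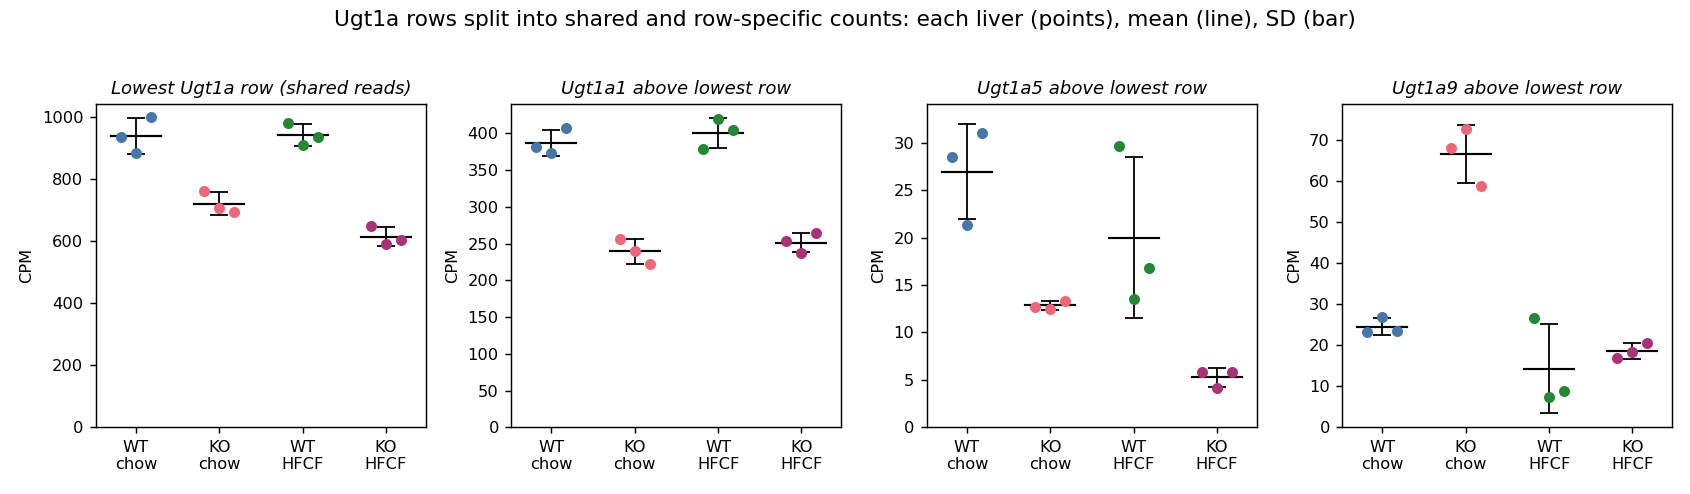
CPM (y axis, each panel on its own scale from 0) of the lowest Ugt1a gene, taken as the shared reads, and of Ugt1a1, Ugt1a5 and Ugt1a9 above it, in each liver (points) by group (x axis), with the mean as a line and the SD over 3 livers as a bar. The shared part, Ugt1a1 and Ugt1a5 are lower in the KO groups, whereas Ugt1a9 is highest in the 3 KO chow livers, at 58.9 to 72.7 CPM.

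The Ugt2 genes form a cluster on chromosome 5, between 86889767 and 87490871, and conjugate steroids, bile acids and fatty acids. The most abundant ones were not called in any contrast: Ugt2b5 had FPKM of 447, 515 and 544 in WT chow livers and 577, 452 and 482 in KO chow livers. Ugt2b5 on HFCF was at 369, 398 and 445 in WT livers and 416, 472 and 392 in KO livers, and Ugt2b36 had FPKM of 349, 387 and 403 in WT chow livers and 398, 298 and 335 in KO chow livers. Ugt2b36 on HFCF was at 369.9, 376 and 406 in WT livers and 287, 327 and 273 in KO livers. Ugt2b1 had FPKM of 238, 255 and 299 in WT chow livers and 218, 147 and 192 in KO chow livers. Ugt2b1 on HFCF was at 216, 343 and 329 in WT livers and 216, 202 and 179 in KO livers. It was called down in the knockout on chow (-0.56 ± 0.17, adjusted p = 0.0427), a call lost without any one of WT chow livers 2 or 3 or KO chow livers 2 or 3 (adjusted p = 0.0722 to 0.158). That call was also lost in a fit with the replicate number as a block (adjusted p = 0.0621). On HFCF the difference was of like size and missed the threshold (-0.51 ± 0.17, adjusted p = 0.051), and it was called without WT HFCF liver 1 (-0.70, adjusted p = 0.0046).

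Ugt2b37 (chromosome 5, 87240493 to 87254804) was called up, alone in this cluster. Its FPKM were 1.06, 2.64 and 2.19 in WT chow livers and 7.04, 15.6 and 14.5 in KO chow livers. Ugt2b37 on HFCF was at 1.49, 1.65 and 1.51 in WT livers and 1.14, 1.83 and 1.04 in KO livers. It was high in the 3 KO chow livers alone, and the other 9 livers lay between 1.04 and 2.64. The knockout raised it 6.04-fold on chow (2.60 ± 0.32, adjusted p = 0.000198) and was not called on HFCF (-0.17 ± 0.39, adjusted p = 0.816), and HFCF lowered it 8.88-fold in KO livers (-3.15 ± 0.33, adjusted p = 0.000202). The interaction was -2.76 ± 0.51, adjusted p = 0.0341, and was lost without any one of WT chow livers 1 or 3, KO chow liver 3, WT HFCF liver 2 or KO HFCF livers 1, 2 or 3 (adjusted p = 0.0601 to 0.0788) and under limma voom (adjusted p = 0.0766). Of its 50-base words, 18.3% occur in transcripts of other genes, most of them in Ugt2b5 (15.2%). Mean levels over the 12 livers were 8.05 CPM for Ugt2b37 and 866 CPM for Ugt2b5. Ugt2b5 and Ugt2b38 were not called, and Ugt2b38 averaged 6.42 CPM in WT chow and 11.3 CPM in KO chow livers. Whether shared reads added to the Ugt2b37 counts was not tested.

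Both Ugt3 genes, which use sugar donors other than UDP-glucuronic acid, lie side by side on chromosome 15, between 9279829 and 9370955. Ugt3a1 had FPKM of 36.9, 31.4 and 30.9 in WT chow livers and 23.5, 19.1 and 17.3 in KO chow livers. Ugt3a1 on HFCF was at 25.2, 25 and 29.9 in WT livers and 20.9, 19.9 and 18.2 in KO livers. It fell in the knockout on chow (-0.77 ± 0.11, adjusted p = 0.000754) and on HFCF (-0.38 ± 0.11, adjusted p = 0.0318). The HFCF call was lost without any one of WT HFCF livers 2 or 3 or KO HFCF livers 2 or 3 (adjusted p = 0.0518 to 0.105). Ugt3a2 had FPKM of 176, 172 and 175 in WT chow livers and 160.4, 126 and 146 in KO chow livers. Ugt3a2 on HFCF was at 181, 168 and 187 in WT livers and 158, 165 and 131 in KO livers. It was called down on chow (-0.32 ± 0.10, adjusted p = 0.0433), lost without any one of WT chow livers 1, 2 or 3 or KO chow livers 2 or 3 (adjusted p = 0.0786 to 0.161). Ugt2a1, known from the olfactory epithelium, was near 0 in the liver: its 2 counts over WT HFCF livers and 22 over KO HFCF livers differed 11.4-fold (2.80 to 99.97 as the 95% interval from counting error). Its identifier carries the name Ugt2a2 in GENCODE M21.

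Of the 5 tested sulfotransferases of family 1, 4 fell in the knockout on both diets. Sult1a1, the main phenol sulfotransferase (chromosome 7, 126672865 to 126676432), had FPKM of 259, 228 and 227 in WT chow livers and 133, 135 and 109.7 in KO chow livers. Sult1a1 on HFCF was at 201, 198 and 204 in WT livers and 115, 157 and 149 in KO livers. Every KO liver lay below every WT liver, and it was called down on chow (-0.96 ± 0.12, adjusted p = 0.000168) and on HFCF (-0.46 ± 0.12, adjusted p = 0.0125). Sult1d1, a catecholamine sulfotransferase of mice, had FPKM of 74, 72 and 69.9 in WT chow livers and 55.8, 46 and 43 in KO chow livers. Sult1d1 on HFCF was at 70, 74 and 84.4 in WT livers and 52.1, 65.5 and 49 in KO livers. It fell on chow (-0.62 ± 0.12, adjusted p = 0.00333) and on HFCF (-0.40 ± 0.12, adjusted p = 0.0277), the second call lost without any one of WT HFCF livers 2 or 3 or KO HFCF livers 1 or 3 (adjusted p = 0.0617 to 0.0886). The summed FPKM of the 8 Sult genes, 66.4% of which came from Sult1a1, averaged 330 ± 22 in WT chow, 197 ± 17 in KO chow, 308 ± 5.4 in WT HFCF and 227 ± 28 in KO HFCF livers (SD, n = 3).

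Sult1b1, which acts on thyroid hormones, and Sult1c2 rose with HFCF in WT livers and were lower in the knockout on both diets. Sult1b1 (chromosome 5) had FPKM of 10.8, 8.46 and 11.3 in WT chow livers and 6.82, 6.65 and 7.12 in KO chow livers. Sult1b1 on HFCF was at 19.2, 20 and 15.6 in WT livers and 8.53, 9.51 and 8.98 in KO livers. It rose with HFCF in WT livers (0.81 ± 0.11, adjusted p = 0.000562) and was not called in KO livers (0.46 ± 0.12, adjusted p = 0.0543). It fell in the knockout on chow (-0.62 ± 0.12, adjusted p = 0.00403) and on HFCF (-0.96 ± 0.11, adjusted p = 8.12e-05). Sult1c2 (chromosome 17) had FPKM of 2.71, 2.22 and 2.73 in WT chow livers and 1.22, 1.65 and 2.01 in KO chow livers. Sult1c2 on HFCF was at 6.51, 4.54 and 4.65 in WT livers and 1.62, 2.59 and 1.98 in KO livers. HFCF raised it 2.01-fold in WT livers (adjusted p = 0.00541). The knockout lowered Sult1c2 on HFCF (-1.29 ± 0.20, adjusted p = 0.000687) and on chow (-0.71 ± 0.22, adjusted p = 0.0459), the latter lost without any one of WT chow livers 1, 2 or 3 or KO chow livers 1 or 2 (adjusted p = 0.0533 to 0.16) and under limma voom (adjusted p = 0.0563). The chow call was also lost in a fit with the replicate number as a block (adjusted p = 0.0682).

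Sult2a7 rose. It belongs to the hydroxysteroid and bile acid sulfotransferases and lies on chromosome 7, 14465159 to 14492941. Its FPKM were 2.77, 1.18 and 1.4 in WT chow livers and 5.45, 8.11 and 5.54 in KO chow livers. Sult2a7 on HFCF was at 1.88, 1.01 and 1.53 in WT livers and 11.3, 8.13 and 9.65 in KO livers, with every KO liver above every WT liver. The rise was 3.45-fold on chow (1.79 ± 0.30, adjusted p = 0.00164) and 6.74-fold on HFCF (2.75 ± 0.29, adjusted p = 3.36e-05), and both calls were kept in every alternative run. Sult2a7 was the one Sult2a gene in the table, and its identifier was not found in GENCODE M21, so sharing of reads with near copies was not examined. Sult3a1 was low and was called up on chow (3.33 ± 0.96, adjusted p = 0.0318), a call lost without any one of WT chow livers 1 or 3 or KO chow livers 1 or 2 (adjusted p = 0.068 to 0.118). On HFCF the genotype difference of Sult3a1 was not called. Its 3 counts over WT livers against 30 over KO livers differed 10.4-fold (3.22 to 53.05 as the 95% interval from counting error). That interval leaves out the spread between livers, and the KO HFCF livers held 18, 9 and 3 counts. Sult1e1, the estrogen sulfotransferase, had 0.0568 to 2.36 FPKM over the 12 livers and was not called, with log2 fold changes of 1.66 ± 0.90 and 1.46 ± 0.57 for the genotype.

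The promoters of the members were searched for 3 short motifs. RefSeq promoters (250 bases before to 50 after the start, GRCm38.p6) were matched for 42 of the 46 members, 51 promoters in all, and both strands were read. The core of the antioxidant response element to which NRF2 binds, TGACNNNGC, was in 4 of 51 (7.84%), beside 12.4% of all 32851 promoters. CAAGGTCA, an extended site known for LRH-1, was in 0 of 51, beside 1.56% of all promoters, and the palindrome known for HNF1 was in 0 of 51, beside 0.0091%. At these shares, few or no matches among 51 promoters say nothing particular about the members. The 4 promoters with a TGACNNNGC match are printed in the direction of the gene, with the match in capitals, which for Mgst1 reads on the opposite strand.
Gsta3, chr1:21240439-21240497, plus strand: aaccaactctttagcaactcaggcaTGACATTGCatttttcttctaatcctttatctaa
Gstm5, chr3:107895787-107895845, plus strand: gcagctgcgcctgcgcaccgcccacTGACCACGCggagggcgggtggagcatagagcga
Gstm7, chr3:107931710-107931768, minus strand: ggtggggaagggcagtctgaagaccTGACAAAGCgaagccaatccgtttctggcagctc
Mgst1, chr6:138140446-138140504, plus strand: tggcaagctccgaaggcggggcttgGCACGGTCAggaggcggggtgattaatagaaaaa
The matches lie 42 to 129 bases before the start sites. Of these 4 genes, Gsta3 was down and Gstm5 up in KO chow livers, and Gstm7 and Mgst1 were called in no contrast.

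The genes that supply the donors of conjugation were counted by list. Beside these lists, 9.72% of all tested genes were up in the knockout on chow, 5.82% down and 15.5% either way. On HFCF the shares were 10.6%, 8.52% and 19.1%. Counts near these shares say nothing particular about a list. Of 16 genes of glutathione synthesis and recycling, 1 was called up and 0 down in the knockout on each diet: Slc7a11, the cystine importer. It was low, at 0.0715, 0.0708 and 0.0691 CPM (1 count in each library) in WT chow and 0.72, 0.759 and 1.76 CPM in KO chow livers (adjusted p = 0.00229). Its HFCF levels were 0.455, 0.209 and 0.515 CPM in WT and 2.04, 2.24 and 1.18 CPM in KO livers (2.15 ± 0.43, adjusted p = 0.00348). Of 12 genes of UDP-glucuronic acid supply, 2 were up and 2 down on chow and 1 up and 4 down on HFCF. Ugp2, which makes UDP-glucose, rose with HFCF in WT (0.74 ± 0.10) and KO livers (0.48 ± 0.09) and was lower in the knockout on HFCF (-0.32 ± 0.09). Of 16 genes of sulfate donor supply and the sulfatases, 1 was up and 2 down on chow and 2 up and 3 down on HFCF. Among 15 other conjugating enzymes, Inmt, an amine N-methyltransferase, was lower in the knockout on chow (-1.04 ± 0.11) and on HFCF (-1.57 ± 0.11).

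Of 17 transporters of conjugates and drugs, 3 were up and 3 down in the knockout on chow and 2 up and 4 down on HFCF. For the lists of this paragraph, the shares of all tested genes were 9.72% up and 5.82% down on chow. They were 10.6% up and 8.52% down on HFCF, and 15.5% and 19.1% either way. Abcc3, which exports glucuronides to the blood, stood at 523, 427 and 497 CPM in WT HFCF and 248, 207 and 249 CPM in KO HFCF livers (-1.04 ± 0.10, adjusted p = 1.85e-05). Abcc4, an exporter of conjugates, was higher in the knockout on chow (1.62 ± 0.20, adjusted p = 0.000189) and on HFCF (1.01 ± 0.20, adjusted p = 0.00373). Of 13 tested cytochrome P450 genes known as CAR and PXR targets, 5 were down and 1 up on chow and 9 down and 1 up on HFCF, with a median of -0.38 and -0.85. Cyp2c29 stood at 882, 833 and 945 CPM in WT chow, 459, 343 and 337 in KO chow, 981, 944 and 1198 in WT HFCF and 193, 209 and 194 in KO HFCF livers. Among 23 xenobiotic sensors and regulators, 2 were up and 2 down on chow and 1 up and 3 down on HFCF. Nr1i3, which encodes CAR, was lower in the knockout on HFCF (-0.77 ± 0.16, adjusted p = 0.00362) and not called on chow (-0.41 ± 0.16, adjusted p = 0.091). Nfe2l2, which encodes NRF2, was higher on chow (0.42 ± 0.10, adjusted p = 0.0154) and not called on HFCF (-0.03 ± 0.10, adjusted p = 0.888). Esr1 was higher on HFCF (1.07 ± 0.20, adjusted p = 0.00226) and Ahr lower (-0.55 ± 0.13, adjusted p = 0.00994). Ppara was lower on chow (-0.29 ± 0.09, adjusted p = 0.0383) and on HFCF (-0.43 ± 0.09, adjusted p = 0.00406). Of 19 NRF2 targets other than transferases, 3 were up and 1 down on chow and 5 up and 5 down on HFCF.

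Markers of some other cells moved with the genotype as well. Of all tested genes, 9.72% were up in the knockout on chow, 5.82% down and 15.5% either way. On HFCF 10.6% were up, 8.52% down and 19.1% either way. Of 11 tested macrophage and Kupffer cell markers, 7 were up in the knockout on chow and 8 on HFCF. Their summed level was 419 to 472 CPM in WT chow, 687 to 714 in KO chow, 382 to 802 in WT HFCF and 943 to 993 in KO HFCF livers, and 0 of the 11 were at 0 in any liver; the 802 CPM was liver 1 of the WT HFCF group. Adgre1 was not analysed here. Of 12 stellate cell and fibroblast markers, 6 were up on chow and 2 on HFCF, with sums of 588 to 713 CPM in WT chow, 851 to 869 in KO chow, 787 to 938 in WT HFCF and 725 to 961 in KO HFCF livers. Of 9 cholangiocyte and progenitor markers, 2 were up on chow and 1 up and 1 down on HFCF, and their sums were 46.1 to 66.03, 86.1 to 123.3, 75.6 to 114 and 79.6 to 97.7 CPM in the same order. Of 12 endothelial markers, 0 were called on chow, and 1 up and 2 down on HFCF, with sums between 653 and 738 CPM. Hepatocyte markers were down for 2 of 10 on chow, and up for 3 and down for 1 on HFCF. Among hepatocyte genes of the pericentral zone, where many conjugation enzymes are highest, 6 of 15 were down and 2 up on chow and 6 down and 1 up on HFCF. Of 13 periportal genes, 5 were down and 3 up on chow, a like share, and 1 down and 4 up on HFCF. Median log2 fold changes of the pericentral and periportal genes were -0.23 and -0.15 on chow and -0.35 and 0.28 on HFCF. Among 14 genes known to be higher in male liver, 4 and 7 were up in the knockout, and of 8 tested female-biased genes 2 were up and 1 down on chow and 1 up and 2 down on HFCF. The part of these shifts in the enzyme differences was not tested.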

How the data were processed

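RNA from 12 mouse livers was sequenced after ribosomal depletion with a stranded Illumina kit, per the labels' protocols. Per the file headers, the deposited values are raw read counts, FPKM and a length for each gene. The submitters' processing notes name the build mm10, whereas the aligner, the counter and its strand setting are not given in the sources used here. The deposited FPKM equalled count per length times 1 constant per library within a relative deviation of 1.11e-07, and what set that constant is not given in the sources used here. Total counts were 13967116 to 18324134 per library, and count intervals cover counting error only. Nothing in the table names separate runs, and the series describes 3 mice per group.

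The counts were fitted in edgeR 4.0.16 (R 4.3.3) with TMM scaling, filterByExpr (minimum count 10, minimum total 15, leaving 14736 of 15846 genes), 4 group means, quasi-likelihood tests and Benjamini-Hochberg adjustment over all tested genes, with a threshold of 0.05. The script was tested on simulated data. Standard errors are the log2 fold change divided by the root of F. FPKM were used for levels only. Promoters came from RefSeq (GRCm38.p6), and transcripts and exons from GENCODE M21, in which 45 of the 46 identifiers were found. Sharing of 50-base words between transcripts stood in for a planned comparison of proteins, which were not used here.

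Genes are named by rule: in each family the 2 members with the highest mean FPKM, and per contrast and direction the 3 called members with the largest fold change and a mean of at least 1 CPM; up to 3 genes with the lowest adjusted p per pathway list and contrast; and Nr0b2. Others are given by fold change or counts, and Gstm2, Gstm7, Sult1e1, Sult3a1, Gsta1 and Ugt2a1 were picked after their values were seen. The members, gene lists and tests were chosen with earlier results of these data known. Alternatives were RLE scaling, other count filters, DESeq2 1.42.0, limma 3.58.1 voom, only the compared groups, a replicate block and each liver left out. The split of Ugt1a reads was added after seeing the data.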

Additional observations from a re-analysis of the deposited data

Results flagged for a closer look

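The effect of the knockout differed between the diets for 4 members by the interaction test of edgeR's quasi-likelihood fit. In each the log2 genotype difference was lower on HFCF than on chow, by -0.61 for Gsta3 (adjusted p = 0.0377), by -0.79 for Gsta4 (adjusted p = 0.0497), by -0.90 for Gstt1 (adjusted p = 0.0423) and by -2.76 for Ugt2b37 (adjusted p = 0.0341). All 3 KO HFCF livers lay below all 3 WT HFCF livers for Gsta3, Gsta4 and Gstt1, whereas for Ugt2b37 the HFCF groups overlapped and the chow groups did not. None of the 4 calls held without every single liver, as given with each gene.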

How the results depend on the processing

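Of 70 calls of members over the 5 contrasts, 43 were kept in every alternative run and 27 were lost in at least 1. Against 0 up and 7 down for the diet in KO livers, DESeq2 called 2 up and 12 down, and a fit of the compared groups alone called 1 up. Against 2 up for the genotype on HFCF, DESeq2 called 4, and against 4 down for the interaction DESeq2 called 7 and limma voom 2. Counts over all tested genes moved as well. For the diet in KO livers, DESeq2 called 389 genes up and 264 down, against 216 and 174. For the genotype on HFCF it called 1376 up, against 1558. For the interaction it called 188 down and limma voom 44, against 62. Leaving out 1 liver gave 3 to 6 members up and 1 to 4 down for the diet in WT, and 0 to 1 up and 3 to 7 down for the diet in KO. For the genotype, 3 to 4 members were up and 13 to 18 down on chow, and 2 to 5 up and 20 to 23 down on HFCF. For the interaction, 0 to 5 members were down. Among differences called in the reported fit or in the alternative, the sign changed for Ugt1a9: as counts above the lowest Ugt1a gene its genotype difference was 1.44 on chow (with each liver left out 1.371, 1.4, 1.405, 1.423, 1.5 and 1.52) and 0.3614 on HFCF (0.0532, 0.1103, 0.2491, 0.3395, 0.4024 and 1.196), where shared reads are taken away. No scaling or filter moved the median of all genes by more than 0.021 on the log2 scale. Correlation coefficients between livers of different groups were computed on the deviations of the livers from their group means. Same-numbered livers gave correlations of -0.148 to 0.167, 4 of 18 above 0.1, and livers with other numbers -0.144 to 0.152. With 3 livers per group, correlations this weak cannot decide whether the numbers pair the livers. With the replicate number as a block, members called were 5 up and 3 down, 0 up and 7 down, 6 up and 18 down, 3 up and 22 down, and 0 up and 6 down in the same order, and the diet difference of Nr0b2 in WT livers was 0.6114 (adjusted p = 0.0369), beside 0.55 in the fit without it (adjusted p = 0.0875), 0.6247 under limma voom (adjusted p = 0.0436) and 0.3341 to 0.9236 with each liver left out. Depth limits Gsta1 and Ugt2a1, which had too few counts to be tested.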
